A study of Mus musculus with 6 samples.

Results

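Chemokines and their receptors were measured in mouse aortic arches as 74 array probes for 57 genes, out of 34821 gene names on the array. A probe belonged to the family when the name given to it in the array files began with Ccl, Ccr, Cxcl, Cxcr, Xcl, Xcr, Cx3cl or Cx3cr followed by a digit, or was Pf4 or Ppbp. The rule uses names and no measured value, although it was chosen with earlier results of these data known. The family held 37 ligand genes and 20 receptor genes, and 45 of the 57 genes were bright enough to be tested.

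The mice were female C57BL/6 animals whose own genotype was Mir21+/+ in both groups. Every recipient received whole-body X-rays as 2 fractions of 5 Gy within 4 h and was given donor bone marrow on the next day. High-fat diet began 3 weeks after irradiation and was given for 12 weeks before the arch was taken. The 3 mice of the group BM Mir21 WT received Mir21+/+ marrow, and the 3 mice of the group BM Mir21 KO received Mir21-/- marrow, with 1 array per mouse. The labels give no age and name no other allele. In these chimeras only marrow-derived cells can lack the microRNA, since the recipient's vessel wall and any recipient blood cells that survived irradiation keep it. The share of donor cells in blood or arch was not analysed here. The comparison asks which arch transcripts differ with the Mir21 genotype of the marrow.

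Chemokines are small secreted or membrane-bound proteins that guide leukocytes along gradients by binding receptors of the G-protein-coupled family. Subfamilies are named for the spacing of their first cysteines, and several ligands share a receptor. In arteries under hypercholesterolaemia, CCL2 with CCR2 and CX3CL1 with CX3CR1 are known for bringing monocytes into the wall, CXCL1 with CXCR2 for neutrophils and monocytes, and PF4 and PPBP for release from platelets. MicroRNAs bind messages mainly through bases 2 to 8, the seed, and lower their stability or translation.

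A mature product of the gene removed from the donor marrow is shown first, because that gene defines the comparison. The other mature product of the gene, miR-21a-3p, has another seed and is not printed. The mature mouse miR-21a-5p in RefSeq, at chr11:86584120-86584141 on the minus strand of GRCm38.p6, reads as follows with its seed in capitals.
mmu-miR-21a-5p: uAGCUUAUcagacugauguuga

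Promoter windows are shown for some of the ligands named below, including neighbours of Cxcl1 that were not detected. Windows of other ligands named below were searched and are not printed. RefSeq sequence on GRCm38.p6 was held for 42 of the 57 genes, in 46 windows reaching from 250 bases before to 50 after a gene's start. Each window was searched on both strands for an NF-kB site, an E-box (CACGTG), a D-box (TTATGTAA), a ROR element and an interferon-stimulated response element (ISRE). NF-kB is a transcription factor known to act on many chemokine genes in inflammation. An NF-kB site was found in 11 of 46 windows (23.9%), against 8.49% of 32544 windows of all genes. The ISRE was found in 3 windows (6.52% against 3.45%), the E-box in 2 (4.35% against 7.17%), the ROR element in 2 (4.35% against 0.384%) and the D-box in 1 (2.17% against 0.931%). A match is a run of letters and not a measured binding site. Below, the 250 bases before the start are printed on the strand of the gene with the matches in capitals, where overlapping matches run together.
Cxcl1, chr5:90890995-90891244, plus strand: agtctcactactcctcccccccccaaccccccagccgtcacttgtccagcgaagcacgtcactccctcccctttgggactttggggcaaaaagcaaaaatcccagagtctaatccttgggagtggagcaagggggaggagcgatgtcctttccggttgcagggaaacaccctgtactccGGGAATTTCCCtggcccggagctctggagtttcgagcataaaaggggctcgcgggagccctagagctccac
Cxcl2, chr5:90903649-90903898, plus strand: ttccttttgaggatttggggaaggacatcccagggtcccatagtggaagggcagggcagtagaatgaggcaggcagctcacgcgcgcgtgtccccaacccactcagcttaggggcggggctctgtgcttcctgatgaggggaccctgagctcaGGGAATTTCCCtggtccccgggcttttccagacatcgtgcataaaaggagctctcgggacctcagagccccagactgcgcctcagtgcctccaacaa
Cxcl3, chr5:90785851-90786100, plus strand: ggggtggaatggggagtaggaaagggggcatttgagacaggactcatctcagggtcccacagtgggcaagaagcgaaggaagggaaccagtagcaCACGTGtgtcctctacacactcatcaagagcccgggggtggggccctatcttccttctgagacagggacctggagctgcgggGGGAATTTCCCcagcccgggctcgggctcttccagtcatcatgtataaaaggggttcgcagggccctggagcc
Cxcl10, chr5:92348890-92349139, minus strand: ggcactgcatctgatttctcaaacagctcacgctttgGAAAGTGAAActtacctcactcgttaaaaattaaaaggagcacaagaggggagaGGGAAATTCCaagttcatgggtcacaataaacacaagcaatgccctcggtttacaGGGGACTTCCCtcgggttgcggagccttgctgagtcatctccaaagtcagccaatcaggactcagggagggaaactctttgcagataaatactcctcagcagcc
Cxcl14, chr13:56296552-56296801, minus strand: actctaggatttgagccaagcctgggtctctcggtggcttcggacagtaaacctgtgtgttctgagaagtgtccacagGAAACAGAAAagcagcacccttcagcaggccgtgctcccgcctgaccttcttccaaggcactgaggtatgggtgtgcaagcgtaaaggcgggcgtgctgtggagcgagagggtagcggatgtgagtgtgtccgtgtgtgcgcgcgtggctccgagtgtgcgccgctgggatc
Ppbp, chr5:90768268-90768517, plus strand: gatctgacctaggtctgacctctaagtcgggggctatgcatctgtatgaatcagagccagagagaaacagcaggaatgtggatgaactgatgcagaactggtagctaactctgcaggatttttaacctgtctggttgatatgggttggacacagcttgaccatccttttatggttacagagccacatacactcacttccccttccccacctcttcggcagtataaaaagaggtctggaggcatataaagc

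The Cxcl1, Cxcl2 and Cxcl3 windows hold the same overlapping pair of NF-kB matches, GGGAATTTCCC, which begins 71, 97 and 73 bases before the start. Cxcl10 holds an ISRE match 213 bases and NF-kB matches 159 and 104 bases before its start. Cxcl14 holds only an ISRE match, 172 bases before the start, and the Ppbp window holds none of the 5 motifs. Among the windows not printed, those of Ccl3, Ccl6, Ccl8, Ccl12 and Pf4 also hold none of the 5. Those of Ccl1 and Ccl9, not printed either, hold NF-kB matches. The genes without a window included Ccl2, Ccl4, Ccl5, Ccl7, Ccl11, Ccl24, Ccl26, Ccr7, Ccr10, Cxcl5, Cxcl11, Cxcl16, Cxcl17 and Cxcr5.

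The array gave for each probe a fluorescence intensity, used here as its log2 relative to the 75th percentile of that array, so that a difference of 1 is a doubling. Between 66.4% and 74.4% of spots were well above background, and the 75th percentile of signal lay between 239 and 407, with the lowest of both on knockout replicate 3. All 6 smooth muscle markers (Acta2, Myh11, Tagln, Cnn1, Smtn and Lmod1) were well above background on every array, with summed log2 levels of 42.6 to 44.5 in the wild-type and 42.8 to 46.9 in the knockout group. Adipocyte markers varied more between arrays than any other marker list, with a mean log2 deviation from the 6-array mean between -2.61 on knockout replicate 3 and 1.31 on wild-type replicate 3. The wild-type arrays lay in row 1 and the knockout arrays in row 2 of a single slide, so slide row and marrow genotype cannot be told apart. In bulk tissue, fewer cells of a type and less RNA per cell cannot be told apart either.

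No chemokine or receptor passed the test between the groups. Differences are knockout minus wild-type marrow on the log2 scale, fitted with limma over 38341 probes that reached that brightness throughout at least 1 of the groups, and each gene is represented by its brightest tested probe. Of 56 tested family probes, 0 had a Benjamini-Hochberg adjusted p under 0.05, and the smallest was 0.51 for Cxcl14. Over the whole array 1 probe passed, which is 0.00261% of those tested. At an unadjusted p under 0.05, 3 of the 56 family probes were called (5.36%), which is below the 8.71% of all probes. Ppbp and Ccl1 were higher (4.44% of all probes) and Cxcl14 was lower (4.27% of all probes). The groups did not overlap for 2 of the 56 probes (3.57%), Ccl1 and Cxcl14, against 13.7% of all probes (7.58% higher and 6.14% lower). The median difference over the 45 genes was 0.03, with 26 above and 19 below 0, and over all probes it was 0.02. Ligands had a median of 0.11, with 17 above and 11 below 0, and receptors a median of 0.02, with 9 above and 8 below.

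**Figure D1:**
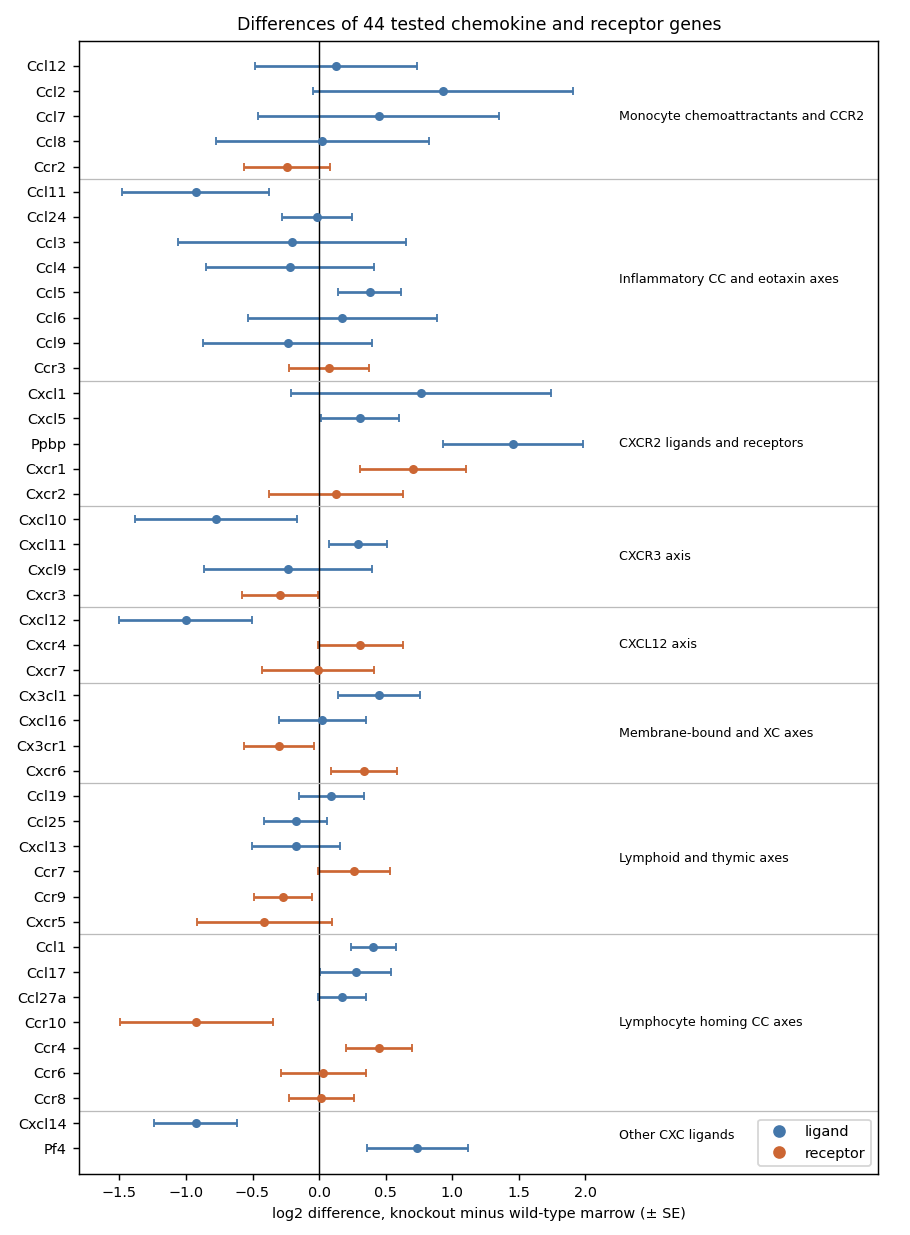
Log2 difference between knockout and wild-type marrow (horizontal axis, point and SE from the limma fit, 3 mice per group) for tested genes of the family, grouped by receptor, with ligands in blue and receptors in orange. The points lie between -1.0 for Cxcl12 and 1.45 for Ppbp, and none passed the adjusted test.

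The count without adjustment changed with the mice included. Without knockout replicate 3 the count was 8 probes, among them Ccl2, Ccl8, Ccl12, Cxcl1, Cxcl5, Cxcl14 and Cxcr1, which is 14.3% of the family against 6.48% of all probes in the same fit. It was 6 without knockout replicate 2 (10.71% against 8.07%) and 6 without knockout replicate 1 (10.71% against 17.9%). It was 5 without wild-type replicate 2 (8.93% against 9.61%), 1 without wild-type replicate 1 (1.79% against 5.65%) and 0 without wild-type replicate 3 (against 3.92%). The adjusted count was 0 in each of these fits. The smallest adjusted p of any member gene was 0.12 (limma), for Ccr10 and for the brighter Cxcl12 probe, both without knockout replicate 1. Ccr10 was not well above background on knockout replicate 3, which that fit keeps, so its level there is only a bound.

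The monocyte chemoattractants Ccl2, Ccl7, Ccl8 and Ccl12 differed more among the knockout-marrow mice than between the groups. Ccl2, the main ligand of CCR2 on inflammatory monocytes, had log2 levels of 0.43, -2.25 and -1.18 in the 3 wild-type arches and 0.22, 1.62 and -2.04 in the 3 knockout arches. Knockout replicate 2 was the highest of all 6 and knockout replicate 3 lay beside the lowest wild-type arch, so the groups overlapped. The knockout arches spanned 12.7-fold and the wild-type arches 6.43-fold. Each Ccl2 value is a mean of 10 spots, with an SD over spots between 0.07 and 0.13. The difference was 0.93 ± 0.98 (SE, n = 3 per group, adjusted p = 0.81, limma). It was 0.09 without knockout replicate 2, 0.31 without wild-type replicate 2, 1.65 without wild-type replicate 1, and at most 1.92, without knockout replicate 3.

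Ccl7, which also binds CCR2, measured -0.49, -2.49 and -1.66 with wild-type and -0.79, 0.59 and -3.10 with knockout marrow. Its knockout values again held both the highest and the lowest of the 6, a 12.9-fold span, and the difference was 0.45 ± 0.91. Ccl12, a mouse chemoattractant of the same family, measured -2.62, -2.79 and -1.78 with wild-type and -1.76, -1.31 and -3.74 with knockout marrow. Here too knockout replicate 2 was highest and knockout replicate 3 lowest, with a difference of 0.13 ± 0.61. Ccl8, which attracts monocytes and T cells and in mice signals through CCR8, measured 1.31, 1.01 and 1.53 with wild-type and 2.71, 1.99 and -0.77 with knockout marrow. Its wild-type arches lay within 1.44-fold of each other, while 2 knockout arches lay above all of them and knockout replicate 3 lay below all of them, an 11.2-fold span. The Ccl8 difference was 0.02 ± 0.80, and with 1 array left out at a time it ran from -0.68 to 1.07, the latter without knockout replicate 3 (adjusted p = 0.66, limma).

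Ccr2, the receptor that lets monocytes leave marrow and enter tissue, varied less than these ligands. It measured -1.62, -2.06 and -1.99 with wild-type and -1.52, -2.04 and -2.81 with knockout marrow, for a difference of -0.24 ± 0.32. Only knockout replicate 3 lay outside the wild-type range on the low side. Macrophage markers shared only some of this pattern. The mean log2 deviation of 9 tested markers of 10 was 0.17, -0.47 and -0.14 in the wild-type arches and 0.00, 0.87 and -0.43 in the knockout arches. The mean over the 4 ligands was 0.38, -0.91 and -0.05, then 0.82, 1.45 and -1.69. Knockout replicate 2 was the highest for both means and for 7 of the 9 markers. Knockout replicate 3, the lowest for the ligand mean, was the lowest for 5 markers (Mrc1, Fcgr1, Cd68, Csf1r and Cd14), while Itgam was highest there at 7.26. The list mean was lowest on wild-type replicate 2. All 9 tested markers were well above background on every array, with summed levels of 9.45 to 15.2 in the wild-type and 9.81 to 21.5 in the knockout group. Their part in the spread of the ligands was not tested.

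**Figure D2:**
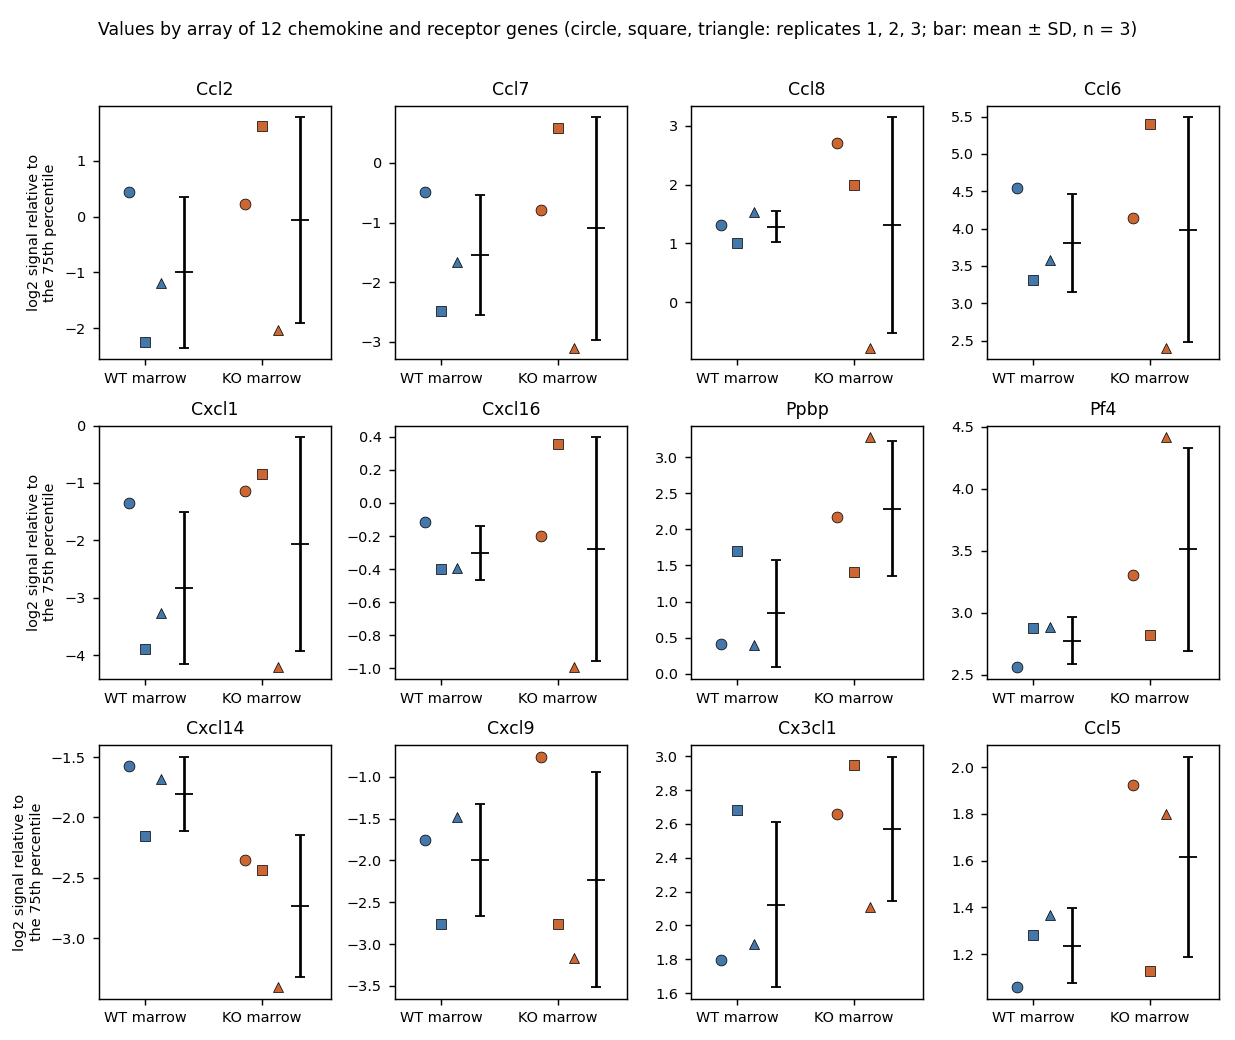
Log2 signal relative to the 75th percentile (vertical axes, each panel on its own scale) of 12 genes in the 6 arches, with circle, square and triangle for replicates 1, 2 and 3 and a bar for the mean ± SD (n = 3). The groups overlap in 11 of the 12 panels and do not overlap for Cxcl14.

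Ccl6, Ccl9, Ccl3 and Ccl4, inflammatory CC ligands of macrophages, showed the same order of knockout mice as Ccl2, Ccl7 and Ccl12. Ccl6, a macrophage-derived CCR1 ligand, measured 4.55, 3.31 and 3.57 with wild-type and 4.14, 5.41 and 2.40 with knockout marrow. The knockout arches took both ends of the range, 8.01-fold apart, and the difference was 0.17 ± 0.71. Ccl9, which also binds CCR1, measured 3.01, 1.5 and 2.01, then 2.31, 2.96 and 0.54, a difference of -0.24 ± 0.64. Wild-type replicate 1 and knockout replicate 2 were almost level at the top, and knockout replicate 3 was lowest. Ccl3, an activated macrophage product that binds CCR1, measured -1.86, -3.61 and -3.35, then -3.17, -1.36 and -4.90. The last of these was not well above background, and the difference was -0.20 ± 0.86. Ccl4, encoded beside Ccl3, measured -1.59, -2.48 and -2.33, then -2.52, -0.91 and -3.64, for a difference of -0.22 ± 0.63.

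Ccl5, a T-cell and platelet chemokine, did not share that order. Its levels were 1.06, 1.28 and 1.37 with wild-type and 1.92, 1.13 and 1.80 with knockout marrow. Knockout replicates 1 and 3 lay above every wild-type arch and knockout replicate 2 lay among them, and the difference was 0.38 ± 0.24 (adjusted p = 0.68, limma). The eotaxins Ccl11 and Ccl24, ligands of the eosinophil receptor CCR3, also had other patterns. Ccl11 measured 0.21, -1.03 and 0.46, then -0.10, -0.96 and -2.06, for a difference of -0.93 ± 0.55 (adjusted p = 0.67, limma). Ccl24 lay between -1.89 and -1.05 on the 6 arrays, with a difference of -0.02 ± 0.26.

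Of the receptors of these ligands, Ccr3 was not well above background on knockout replicate 2 and differed by 0.07 ± 0.30. Ccr1 stayed near background throughout, so the level of the main receptor for Ccl6 and Ccl9 could not be compared.

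The CXCR2 group, which draws neutrophils, had differences above 0 for its 5 tested members, beside 53.2% of all probes above 0. No member was called after adjustment, and the difference of Cxcr2 ranged from -0.34 to 0.56 with 1 array left out at a time. Cxcl1, a neutrophil chemokine of stromal cells and macrophages, measured -1.34, -3.89 and -3.26 with wild-type and -1.14, -0.84 and -4.21 with knockout marrow. Wild-type replicate 1 lay with the high knockout arches, and knockout replicate 3 was lowest, 10.3-fold below knockout replicate 2. The difference was 0.77 ± 0.98 (adjusted p = 0.84, limma). It was 0.15 without knockout replicate 2, 0.24 without wild-type replicate 2, 0.30 without knockout replicate 1, 1.51 without wild-type replicate 1, and at most 1.84, without knockout replicate 3. Cxcl2 and Cxcl3, whose windows carry the same NF-kB letters as Cxcl1, stayed near background on all 6 arrays.

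Cxcl5, a neutrophil chemokine of epithelial and fat tissue, measured -2.72, -3.12 and -3.23, then -2.22, -2.63 and -3.30, for a difference of 0.31 ± 0.29. The receptor Cxcr2 measured -3.29, -2.49 and -4.28, then -2.75, -2.88 and -4.06, for a difference of 0.13 ± 0.51. Wild-type replicate 2 was the highest and wild-type replicate 3 the lowest for Cxcr2. The mean deviation of 6 tested neutrophil markers of 7 was -0.16, 0.75 and -0.59 in the wild-type arches. In the knockout arches it was 0.50, -0.02 and -0.47, so this mean had the same highest and lowest array as Cxcr2. By marker, 3 of the 6 were highest on wild-type replicate 2 and 2 were lowest on wild-type replicate 3. Wild-type replicate 1 and knockout replicate 3 were also the lowest for 2 markers each. The summed levels of the 6 markers ran from -2.93 to 5.10 in the wild-type and from -2.22 to 3.59 in the knockout group. The part of these markers was not tested. Cxcr1, a related receptor, differed by 0.70 ± 0.40.

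Ppbp, the precursor of the platelet chemokine NAP-2 and a ligand of CXCR2, had the largest positive difference of the family. Its probe lies at chr5:91198970-91199029 on mm9. The levels were 0.41, 1.70 and 0.39 with wild-type and 2.17, 1.41 and 3.28 with knockout marrow. Wild-type replicate 2 lay above knockout replicate 2, so the groups overlapped although the means were 2.74-fold apart. The difference was 1.45 ± 0.53 (unadjusted p = 0.026, adjusted p = 0.53, limma), between 0.96 and 1.89 with 1 array left out at a time. Pf4, another alpha-granule chemokine encoded beside it, measured 2.56, 2.88 and 2.89, then 3.30, 2.82 and 4.42, for a difference of 0.74 ± 0.38 (adjusted p = 0.63, limma), between 0.29 without knockout replicate 3 and 1.09 without knockout replicate 2. Knockout replicate 3 was the highest array for both genes.

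Platelet and megakaryocyte markers were highest on that array as well. All 5 tested markers were well above background on every array, and their mean deviation was -0.71, 0.14 and -0.67 in the wild-type and 0.21, -0.24 and 1.27 in the knockout arches. Their summed level was -6.33 to -2.09 in the wild-type and -4.01 to 3.53 in the knockout group. The 5 markers had differences from 0.43 for Gp1ba to 1.5 for Itga2b, with a median of 0.58. The part of the platelet markers in the Ppbp and Pf4 differences was not tested.

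**Figure D3:**
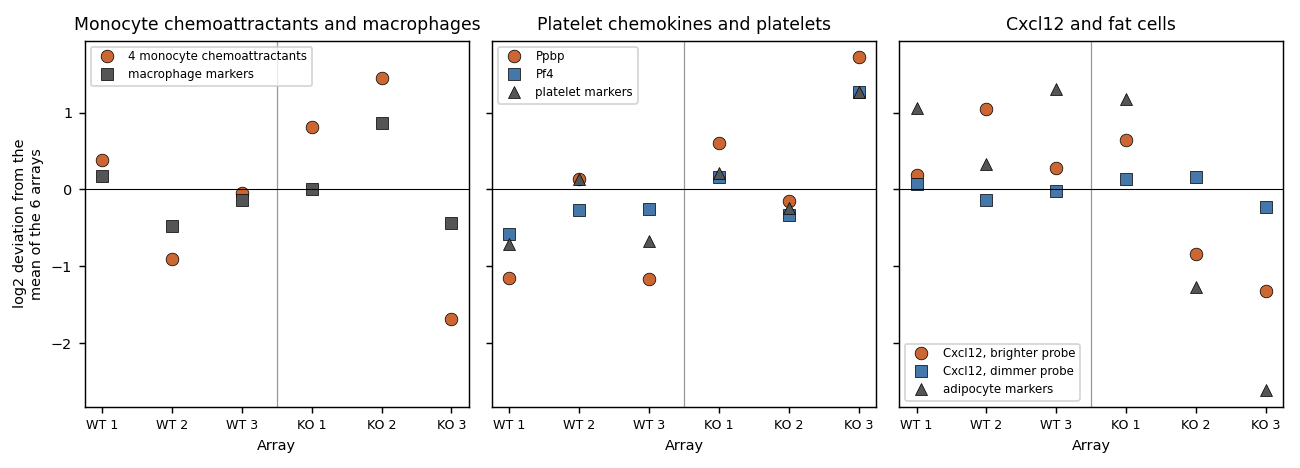
Log2 deviation of each array from the 6-array mean (vertical axis) by array (horizontal axis) for chemokine genes and for the mean of a marker list. Macrophage markers are shown with the mean of 4 monocyte chemoattractants, platelet markers with Ppbp and Pf4, and adipocyte markers with both probes of Cxcl12, where only the brighter probe is low on knockout replicates 2 and 3.

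Among the interferon-induced ligands of CXCR3, which guide effector T cells, the differences of Cxcl10 and Cxcl9 were below 0 with overlapping groups. With 1 array left out at a time, that of Cxcl9 ran from -0.97 to 0.23. Cxcl10 measured -3.94, -2.39 and -1.44 with wild-type and -2.87, -3.18 and -4.05 with knockout marrow. Its wild-type arches spanned 5.67-fold, more than the 2.26-fold of the knockout arches, and the difference was -0.77 ± 0.61. Cxcl9 measured -1.75, -2.75 and -1.48, then -0.76, -2.76 and -3.16 on its brighter probe, for a difference of -0.23 ± 0.63. The other Cxcl9 probe gave -0.59 ± 0.95. Cxcl11 differed by 0.29 ± 0.22 on its brighter probe and by -0.01 ± 0.21 on the other, so its sign depended on the probe. The levels were far apart, from 8.51 to 9.28 on the brighter probe and from 2.70 to 3.30 on the other. Which of them reflects the Cxcl11 message was not tested. The receptor Cxcr3 differed by -0.29 ± 0.29, with knockout replicate 3 lowest at -3.68.

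Cxcl12, which retains stem cells and neutrophils in marrow through CXCR4, gave different answers on its 2 probes. They are annotated to different RefSeq transcripts of the gene, and whether these transcripts differ in level was not tested. The brighter probe, at chr6:117131227-117131286 on mm9, measured 2.44, 3.30 and 2.53 with wild-type and 2.91, 1.42 and 0.94 with knockout marrow. Knockout replicate 1 lay within the wild-type range and the other knockout arches below it, and the difference was -1.0 ± 0.50 (adjusted p = 0.62, limma). The probe at chr6:117125026-117125085 measured 1.62, 1.41 and 1.53, then 1.69, 1.70 and 1.32, a difference of 0.05 ± 0.17. With 1 array left out at a time the brighter probe gave values from -0.60, when knockout replicate 3 was omitted, to -1.58, when knockout replicate 1 was omitted (adjusted p = 0.12, limma).

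Adipocyte markers were low on the same arrays as the brighter Cxcl12 probe. Their mean deviation over 8 tested markers of 8 was 1.05, 0.33 and 1.31 in the wild-type and 1.17, -1.27 and -2.61 in the knockout arches, with summed levels of 34.4 to 42.2 and 10.9 to 41.1. Their part in the Cxcl12 value was not tested. Cxcr4, the signalling receptor, differed by 0.31 ± 0.32. Cxcr7, the scavenging receptor for Cxcl12 that is now named Ackr3, measured 1.81, 1.06 and 2.22, then 2.46, 1.6 and 1.0, for a difference of -0.01 ± 0.42.

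Cxcl14, a chemokine of epithelia and adipose tissue, had the smallest p of the family. Its probe at chr13:56390078-56390137 on mm9 measured -1.58, -2.15 and -1.68 with wild-type and -2.35, -2.43 and -3.40 with knockout marrow. Every knockout arch lay below every wild-type arch, by the narrowest margin between wild-type replicate 2 and knockout replicate 1. The means were 1.90-fold apart, a difference of -0.93 ± 0.31 (unadjusted p = 0.019, adjusted p = 0.51, limma), and between -1.12 and -0.59 with 1 array left out at a time. With another background correction, normexp, it was -0.36 ± 0.14. Deviations of Cxcl14 from the 6-array mean were 0.69, 0.12 and 0.58, then -0.08, -0.17 and -1.14. Those of the adipocyte marker list were 1.05, 0.33 and 1.31, then 1.17, -1.27 and -2.61. Both were lowest on knockout replicate 3, but on knockout replicate 1 only the adipocyte markers were raised. The part of the adipocyte markers in the Cxcl14 difference was not tested.

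The membrane-bound chemokines, which can hold cells at the vessel surface, had overlapping groups and no adjusted call. Cx3cl1 (fractalkine) measured 1.79, 2.68 and 1.89 with wild-type and 2.66, 2.95 and 2.11 with knockout marrow, for a difference of 0.45 ± 0.31. Wild-type replicate 2 lay above 2 of the knockout arches, and the groups did not overlap without it, with a difference of 0.73 ± 0.28 (adjusted p = 0.50, limma). Without knockout replicate 2 the difference was 0.26, and without wild-type replicate 1 it was 0.28. Its receptor Cx3cr1, found on patrolling monocytes and macrophages, differed by -0.30 ± 0.26 on the brightest probe, by -0.24 ± 0.23 on a probe overlapping it and by 0.07 ± 0.29 on the other probe. Cxcl16, also a scavenger receptor for oxidised lipoprotein, measured -0.11, -0.40 and -0.39, then -0.20, 0.35 and -0.99. Knockout replicate 2 was again highest and knockout replicate 3 lowest, with a difference of 0.02 ± 0.33. Its receptor Cxcr6 differed by 0.34 ± 0.25, and Xcl1 and Xcr1 were dim on all 6 arrays.

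Chemokines of lymphoid tissue and thymus were measured because lymph nodes and thymic remnants can lie beside the arch. Ccl19, which calls CCR7-bearing dendritic and T cells, differed by 0.09 ± 0.24, and Ccr7 by 0.26 ± 0.27. Ccl19 and Ccl27a lie in a duplicated block of chromosome 4 with near-identical copies, so their signals are uncertain as to the copy. No probe carried the name Ccl21a. Cxcl13, the B-cell follicle chemokine, differed by -0.17 ± 0.33 and its receptor Cxcr5 by -0.41 ± 0.51. Cxcr5 was lowest on knockout replicate 2 at -4.46, where the mean deviation of the 5 B-cell markers was also lowest, at -0.73.

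Ccr9, a receptor of thymocytes and gut-homing T cells, measured -1.39, -1.54 and -1.68 with wild-type and -1.41, -2.15 and -1.85 with knockout marrow, for a difference of -0.27 ± 0.22. Thymocyte markers, 6 tested of 6, had mean deviations of 0.31, 0.29 and 0.38, then 0.37, -1.14 and -0.22, and the same knockout replicate 2 was lowest. Their summed levels were -16.0 to -15.4 in the wild-type and -24.6 to -15.5 in the knockout group, and their part was not tested. Ccl25, the thymic ligand of CCR9, differed by -0.18 ± 0.23 on the brighter probe and by 0.01 ± 0.20 on the other.

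Among the CC axes of lymphocyte homing, Ccl1, a CCR8 ligand of activated T cells, had non-overlapping groups. Its brighter probe at chr11:81990451-81990510 on mm9 measured -3.55, -3.48 and -3.32 with wild-type and -2.99, -3.26 and -2.89 with knockout marrow. The gap between the groups was narrow, and the difference was 0.41 ± 0.17 (unadjusted p = 0.045, adjusted p = 0.57, limma). The other Ccl1 probe was dim on all 6 arrays. The receptor Ccr8 differed by 0.02 ± 0.24. Ccl17 and its receptor Ccr4, which draw regulatory and type 2 helper T cells, differed by 0.27 ± 0.27 and 0.45 ± 0.25. Ccr10, the receptor for Ccl27a in skin homing, differed by -0.92 ± 0.58 and was not well above background on knockout replicate 3. Ccr6, shared by B cells and type 17 helper T cells, differed by 0.03 ± 0.32.

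Of the 12 genes that were not tested, 9 lay well above background on 0 of the 6 arrays. They were Ccl20, Ccl22, Ccl26, Ccl28, Ccr1, Cxcl2, Cxcl3, Xcl1 and Xcr1. Ccr1l1 was well above background on knockout replicate 1 alone, Cxcl15 on wild-type replicates 1 and 3 and knockout replicate 1, and Cxcl17 on wild-type replicate 3 and knockout replicate 1.

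Many members varied widely between mice of the same group, which is given as a description without a test. The median SD over the 45 genes was 0.38 with wild-type and 0.63 with knockout marrow, against 0.19 and 0.27 over all tested probes. An SD above 1 in the knockout group was found for 14 of 45 genes (31.1%), against 2.89% of all probes. In the wild-type group it was found for 4 genes (8.89%), against 0.900%. Among the 41 genes well above background on all 6 arrays it held for 11 in the knockout group (26.8%), against 2.01% of such probes. The knockout SD was the larger in 36 of 45 genes (80.0%), against 68.5% of all probes.

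**Figure D4:**
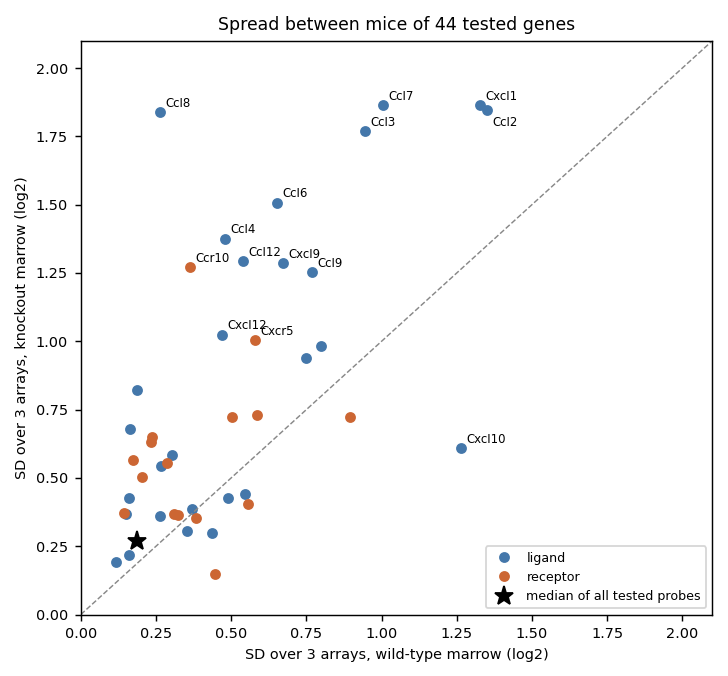
SD over 3 arches with knockout marrow (vertical axis) against SD over 3 arches with wild-type marrow (horizontal axis), both log2, for tested genes of the family. Genes with an SD above 1 in either group are named, the dashed line marks equal SDs, and the star marks the median of all tested probes at 0.19 and 0.27.

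Single arrays carried much of this spread. Knockout replicate 3 was the lowest of the 6 for 22 of 45 genes (48.9%), against 18.3% of all probes. Knockout replicate 2 was the highest for 13 genes (28.9%, against 14.1%) and knockout replicate 1 for 15 (33.3%, against 20.9%), and knockout replicate 1 was the lowest for 0 genes. Knockout replicate 2 was highest and knockout replicate 3 lowest together for 8 genes (17.8%, against 1.98%), among them Ccl3, Ccl4, Ccl6, Ccl7, Ccl12, Cxcl1 and Cxcl16. This set was chosen after its values were seen. Knockout replicate 3 also had the lowest share of spots well above background, whose part was not tested.

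**Figure D5:**
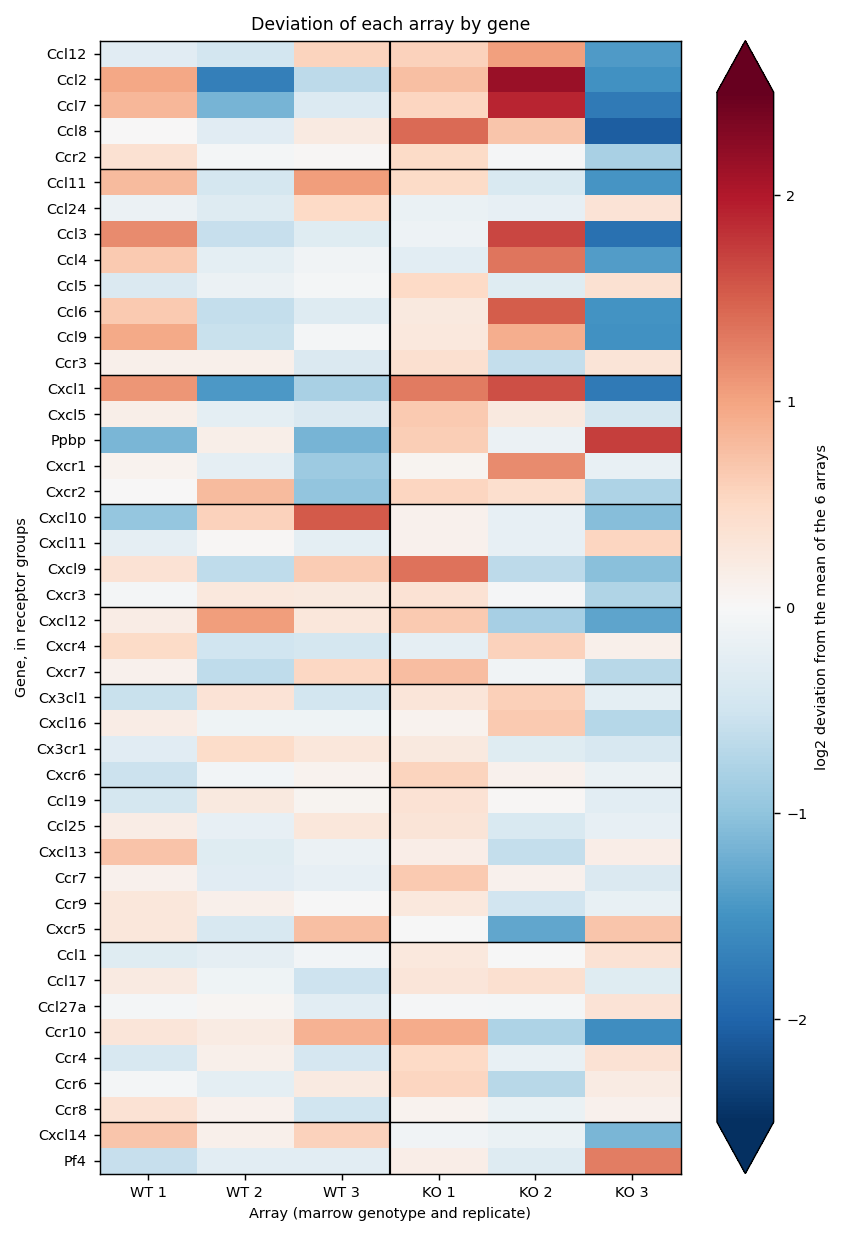
Log2 deviation from the mean of the 6 arrays (colour, red above and blue below) for tested genes of the family (rows, in receptor groups) on each array (columns). Knockout replicate 3 is blue for all the monocyte chemoattractants in the top block, and knockout replicates 2 and 3 lie at opposite ends for Ccl3, Ccl4, Ccl6, Ccl7, Ccl12, Cxcl1 and Cxcl16.

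Several of the genes with a wide spread are chromosomal neighbours. Probes for Ccl2, Ccl7, Ccl11, Ccl12, Ccl8 and Ccl1 lie within chr11:81850650-81990510 on mm9, and those for Ccl5, Ccl9, Ccl6, Ccl3 and Ccl4 within chr11:83339296-83478111. Within these blocks Ccl1, Ccl8, Ccl11 and Ccl5 did not follow the order of the others. Probes for Cxcl5, Ppbp, Pf4, Cxcl3, Cxcl15, Cxcl1 and Cxcl2 lie within chr5:91190490-91334593. In this block Cxcl1 was lowest and Ppbp and Pf4 were highest on the same array, knockout replicate 3.

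Other genes of the chemokine pathway were read from the same fit, and 0 passed the adjusted test in any of 5 lists. Of 6 atypical receptors and related genes, 3 were above and 3 below 0. Ccrl1, the scavenger of homeostatic chemokines now named Ackr4, differed by -1.76 ± 0.64 (adjusted p = 0.54, limma), and was well above background on the wild-type arrays and knockout replicate 2 only. Cmklr1, the chemerin receptor, differed by 0.29 ± 0.25, and Ccrl2, which presents chemerin, by 0.06 ± 0.18. Of 23 signalling genes below the receptors, 14 were above and 9 below 0, beside 53.2% of all probes above 0. Non-overlapping groups were found for 3 of them, beside 13.7% of all probes. At an unadjusted p under 0.05, 1 was called with limma, beside 8.71% of all probes. This was Tiam1, an activator of Rac, with -0.53 ± 0.22. The kinase Ptk2b differed by 0.30 ± 0.16.

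Of 10 desensitisation genes 9 were above 0, beside 53.2% of all probes. Without adjustment 1 was called, beside 8.71% of all probes, and 1 had non-overlapping groups, beside 13.7%. Rgs10, which shortens G-protein signalling, measured 2.12, 1.98 and 1.98 with wild-type and 2.39, 2.47 and 2.74 with knockout marrow, and its groups did not overlap. Its difference was 0.51 ± 0.16 (adjusted p = 0.50, limma). The receptor kinases Adrbk1 and Grk5 differed by 0.29 ± 0.20 and 0.37 ± 0.26. Of 12 tested processing and presentation genes, 10 were above 0, beside 53.2% of all probes. At an unadjusted p under 0.05 with limma 0 of them were called, beside 8.71% of all probes. Ext1, which builds the heparan sulphate that holds chemokines, differed by 0.44 ± 0.25, the protease Mmp2 by 0.41 ± 0.26 and the proteoglycan Sdc4 by -0.30 ± 0.23.

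Inducers of chemokine genes had 3 unadjusted calls among 14 tested genes, all higher with knockout marrow, beside 4.44% of all probes called higher. The median difference of the list was 0.04. Nfkbiz, a nuclear regulator of NF-kB, measured -2.81, -2.84 and -2.71 with wild-type and -2.15, -1.94 and -2.37 with knockout marrow. Nfkb1, an NF-kB subunit, measured -0.43, -0.20 and -0.64, then -0.04, 0.32 and 0.28. Myd88, the adaptor of Toll-like and interleukin-1 receptors, measured 1.23, 1.18 and 1.01, then 1.56, 1.72 and 1.54. For all 3 genes every knockout arch lay above every wild-type arch, beside 7.58% of all probes. The differences were 0.64 ± 0.17 for Nfkbiz, 0.61 ± 0.19 for Nfkb1 and 0.46 ± 0.15 for Myd88, with adjusted p of 0.44, 0.48 and 0.50 (limma). In these genes knockout replicate 3 did not lie far below the other knockout arches as it did in Ccl2, Ccl7 and Cxcl1. Ifng, Il1a and Il6 were not tested, and Il1a was dim on all 6 arrays.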

How the data were processed

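Total RNA from 6 aortic arches was hybridised in 1 colour, with 3 mice per group as the series design states. The deposited scanner files were read with Agilent Feature Extraction 10.7.3.1 and hold, per the file headers, a background-subtracted processed intensity that was not normalized between arrays. Values in the authors' deposited series table matched these intensities to within 0.497%.

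From these, log2 intensity minus each array's 75th percentile over non-control spots was computed here. Repeated spots of a probe were averaged without outlier spots. Testing required a signal well above background in all 3 mice of either group, which left 38341 of 55681, after 10 were set aside for outlier spots. Differences were fitted in R 4.3.3 with limma 3.58.1 (lmFit, eBayes). The test was two-sided, and p-values were adjusted by Benjamini-Hochberg across the whole tested array, at 0.05. The fit was tested on simulated data. The number of arrays limits the precision. All arrays shared 1 slide and 1 scan.

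Family names follow the array files. Of the 74 probes, 67 matched a RefSeq gene by accession and 7 by name. Coordinates of probes are those of the files on mm9, and their place relative to exons was not analysed here. Promoter and microRNA sequences are RefSeq's on GRCm38.p6.

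Members, groups and lists were chosen with earlier results of these data known. Genes named with values were those with non-overlapping groups or an unadjusted p under 0.05, the known arterial, thymic and lymphoid axes, and the 3 smallest p of each pathway list, with other members added after their values were seen. Alternatives covered background correction, normalization, the dim-probe filter, the series table, the variance model, array weights, a replicate block, arrays left out and the mean over a gene's probes. Some items are counted in the totals and not reported here.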

Additional observations from a re-analysis of the deposited data

How the results depend on the processing

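The adjusted count of family probes was 0 under every alternative that was run, and the smallest adjusted p of any member gene under any of them was 0.12. Between 0 and 8 family probes had an unadjusted p under 0.05 (limma). With 3 arrays per group 1 array can turn a sign, and probes near background have only a bound. With normexp background correction 5 family probes were called without adjustment (8.93%, against 7.73% of all probes in that fit) and 5 had non-overlapping groups (8.93% against 13.5%), and 4 probes of the whole array passed the adjusted test. That count was 2 with array weights, 2 when the variance prior followed the signal, 2 after centring on the median and 0 where probes had to be well above background on all 6 arrays. With array weights 6 family probes were called without adjustment (10.71%, against 18.7% of all probes). The cause of these shifts was not tested.

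Some member genes changed sign. The difference with normexp became 0.040 for Ccl24, 0.18 for Ccl3, 0.15 for Ccl4, 0.061 for Cxcl13, 0.028 for Cxcl9 and 0.034 for Cxcr3. With quantile normalization it became 0.038 for Cxcr7. With array weights it became 0.19 for Ccl3, 0.12 for Ccl4, -0.14 for Ccl8, -0.047 for Ccr3 and -0.30 for Ccr6.

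Without knockout replicates 2 and 3 together, 5 family probes were called without adjustment (8.93%, against 9.76% of all probes) and 34 had non-overlapping groups (60.7%, against 60.7% of all probes), with a single knockout array left, and 2 probes of the whole array passed the adjusted test. The lone knockout sample is assumed there to vary like the wild-type arrays. The median difference was then 0.42 over the genes and 0.43 over the receptors. Single genes became 0.014 for Ccl11, 0.23 for Ccl25, 0.14 for Ccl9, 0.47 for Ccr10, 0.36 for Ccr2, 0.13 for Ccr9, 0.10 for Cx3cr1, 0.15 for Cxcl12, 0.086 for Cxcl13, 1.23 for Cxcl9, 0.21 for Cxcr3, -0.078 for Cxcr4, 0.76 for Cxcr7, -0.055 for Adrbk1, -0.094 for Ccrl2 and -0.086 for Ext1.

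With 1 array left out at a time, 0 to 8 family probes were called without adjustment and 3 to 11 had non-overlapping groups, and 1 to 2 probes of the whole array passed. Over all probes 3.92% to 17.9% were called without adjustment in these fits and 17.4% to 36.98% had non-overlapping groups, against 5.36% to 19.6% of the family. The median difference ran from -0.11 to 0.33 over the genes, from -0.05 to 0.35 over the ligands and from -0.22 to 0.10 over the receptors. Genes whose sign turned had these ranges, Ccl12 -0.35 to 0.86, Ccl19 -0.11 to 0.24, Ccl24 -0.19 to 0.23, Ccl3 -1.09 to 0.67, Ccl4 -0.94 to 0.42, Ccl6 -0.54 to 0.96, Ccl7 -0.40 to 1.45, Ccl8 -0.68 to 1.07, Ccl9 -0.75 to 0.46, Ccr2 -0.54 to 0.10 and Ccr3 -0.11 to 0.39. The ranges of the others were Ccr6 -0.22 to 0.39, Ccr8 -0.23 to 0.21, Ccrl2 -0.030 to 0.19, Cxcl13 -0.37 to 0.14, Cxcl16 -0.29 to 0.38, Cxcl9 -0.97 to 0.23, Cxcr2 -0.34 to 0.56, Cxcr3 -0.54 to 0.013, Cxcr5 -0.86 to 0.13 and Cxcr7 -0.39 to 0.33.

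With the replicate number as a block, 0 family probes passed adjustment, and 1 probe of the whole array passed. Without adjustment 2 family probes were called (3.57%, against 7.93% of all probes), and 2 had non-overlapping groups (3.57%, against 13.7%). The deviations of same-numbered arrays correlated at 0.12, 0.05 and -0.28 over the tested probes, and not every array correlated best with its own number. Deviations from a mean of so few arrays are tied to each other within a group. These correlations therefore cannot decide whether same-numbered mice were paired.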
